A study of Mus musculus with 6 samples.

Results

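The genes described here are 8 genes of plasminogen activation and blood coagulation, taken by symbol from the 26835 genes with values: Plau, Plaur, Plat, Serpinb2, Thbs1, F3, F10 and Tfpi. The RNA came from bone marrow-derived macrophages (wild-type BALB/C mice aged 5 to 8 weeks), primary cells grown for 6 days in 10% serum with M-CSF at 25 ng/ml. K7M2-EV macrophages were then exposed for 24 h to extracellular vesicles (10 µg) shed by K7M2, an osteosarcoma cell line of the mouse. PBS macrophages received phosphate-buffered saline over the same 24 h, so that the control carries no vesicles of any other cell. Each of the 2 groups held 3 libraries, which the submitters describe as independent experiments.

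Plasmin, the protease that dissolves fibrin and cleaves extracellular matrix, is made from plasminogen by urokinase (Plau) or tissue plasminogen activator (Plat). Urokinase acts mostly at the cell surface, bound to its receptor (Plaur), and is blocked by serpins, among them plasminogen activator inhibitor 2 (Serpinb2). Coagulation starts where tissue factor (F3) meets factor VII and activates factor X (F10), a step that tissue factor pathway inhibitor (Tfpi) shuts down. Thrombospondin 1 (Thbs1) is a matrix glycoprotein of platelets, macrophages and stromal cells. Macrophages are known sources of urokinase and of tissue factor.

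RefSeq promoter windows on GRCm38.p6 were matched for 5 of the 8 genes, and the 250 bases upstream of the start are shown for 4 genes whose RNA changed, a pair that fell and a pair that rose. Letters are 5′ to 3′ on the gene's strand, and capitals mark every match, on either strand, to AP-1 (TGANTCA), SP1 (GGGCGG), PU.1 (GAGGAA), the TATA box (TATAAA) or the NF-κB consensus. The windows are chr7:24462233-24462482 for Plaur, chr3:121723287-121723536 for F3, chr1:107511173-107511422 for Serpinb2 and chr8:13037058-13037307 for F10, all on the plus strand.
Plaur: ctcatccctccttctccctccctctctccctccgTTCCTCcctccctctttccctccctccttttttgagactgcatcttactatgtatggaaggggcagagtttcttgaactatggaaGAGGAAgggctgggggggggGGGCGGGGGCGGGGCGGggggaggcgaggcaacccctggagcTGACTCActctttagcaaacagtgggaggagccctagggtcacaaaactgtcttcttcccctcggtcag
F3: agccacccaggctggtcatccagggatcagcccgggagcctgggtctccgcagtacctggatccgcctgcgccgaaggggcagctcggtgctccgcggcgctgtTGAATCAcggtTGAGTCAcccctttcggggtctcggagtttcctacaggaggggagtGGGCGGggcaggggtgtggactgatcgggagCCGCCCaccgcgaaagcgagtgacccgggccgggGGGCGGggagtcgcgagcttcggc
Serpinb2: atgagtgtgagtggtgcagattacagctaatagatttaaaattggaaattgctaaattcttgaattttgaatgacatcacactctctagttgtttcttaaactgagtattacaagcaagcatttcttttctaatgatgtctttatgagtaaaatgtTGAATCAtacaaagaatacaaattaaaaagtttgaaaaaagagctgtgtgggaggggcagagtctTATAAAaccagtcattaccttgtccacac
F10: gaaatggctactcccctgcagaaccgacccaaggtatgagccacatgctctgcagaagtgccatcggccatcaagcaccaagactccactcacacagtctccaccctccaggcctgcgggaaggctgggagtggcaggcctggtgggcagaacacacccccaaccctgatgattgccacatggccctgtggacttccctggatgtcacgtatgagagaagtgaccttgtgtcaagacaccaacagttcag

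An AP-1 match lay at positions -69 to -63 of Plaur, at -94 to -88 of Serpinb2, and at -146 to -140 and -135 to -129 of F3, counted back from the start. Over all 32851 RefSeq windows of this length, 6.75% held an AP-1 match and 12.4% a TATA box. Serpinb2 had its TATA box at -29 to -24 in the window shown. Another RefSeq window of this gene, for a start further along, is at 107511260 to 107511509. Counted from that start, the AP-1 match lay at -181 to -175 and the TATA box at -116 to -111. A run of SP1 letters stood in Plaur, where 3 matches touch or overlap, and F3 had 3 matches apart from each other. SP1 letters were in 32.7% of all windows and PU.1 letters in 23.3%. F10 held none of the 5 motifs, and none of the 7 windows of these genes matched the NF-κB consensus, which 3.90% of all windows did. Of these motifs AP-1 was the one found both in genes that fell and in a gene that rose, and every match is a description of letters only.

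Libraries held an implied 21435200 to 25776200 reads, read from the spacing of the low values. All 8 macrophage markers on the list were expressed, and they summed to 12690 to 14167 FPKM in K7M2-EV libraries and 4235 to 5121 FPKM in PBS libraries. Most of that sum was Lyz2 (10862 FPKM with vesicles, 3746 FPKM with PBS) and Adgre1 (1824 FPKM with vesicles, 170 FPKM with PBS). Cd68 went the other way (202 FPKM with vesicles, 411 FPKM with PBS, called lower) and Mertk was not called. FPKM are fragment counts divided by transcript length and by library total, so that levels can be compared between genes. The median log2 fold change over all 13009 genes tested was -0.12. At an adjusted p under 0.05, 54% of those genes were called, 2395 (18.4%) higher and 4631 (35.6%) lower. That split depended on scaling, since median-of-ratios scaling gave 3789 higher and 3066 lower. In bulk RNA, fewer cells of a type and less RNA per cell cannot be told apart.

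Vesicle-treated macrophages had far less urokinase RNA, less of its receptor, and more of its serpin inhibitor Serpinb2. Tissue factor RNA fell while factor X RNA rose. Of the 8 genes, 7 reached at least 1 FPKM in at least 3 libraries and were tested, with Plat left below that filter. Serpinb2 and F10 were called higher, Plau, Plaur and F3 were called lower, and Thbs1 and Tfpi were not called. The 5 called are 71.4% of those tested, against the 54% of all genes, so the count itself does not set these genes apart. In the same 5 genes the libraries of both groups did not overlap, which was so for 63.8% of all tested genes. F3 stands in both counts, though it passed the filter only through PBS libraries, where it was high. The median log2 fold change of the 7 was -0.68.

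**Figure D1:**
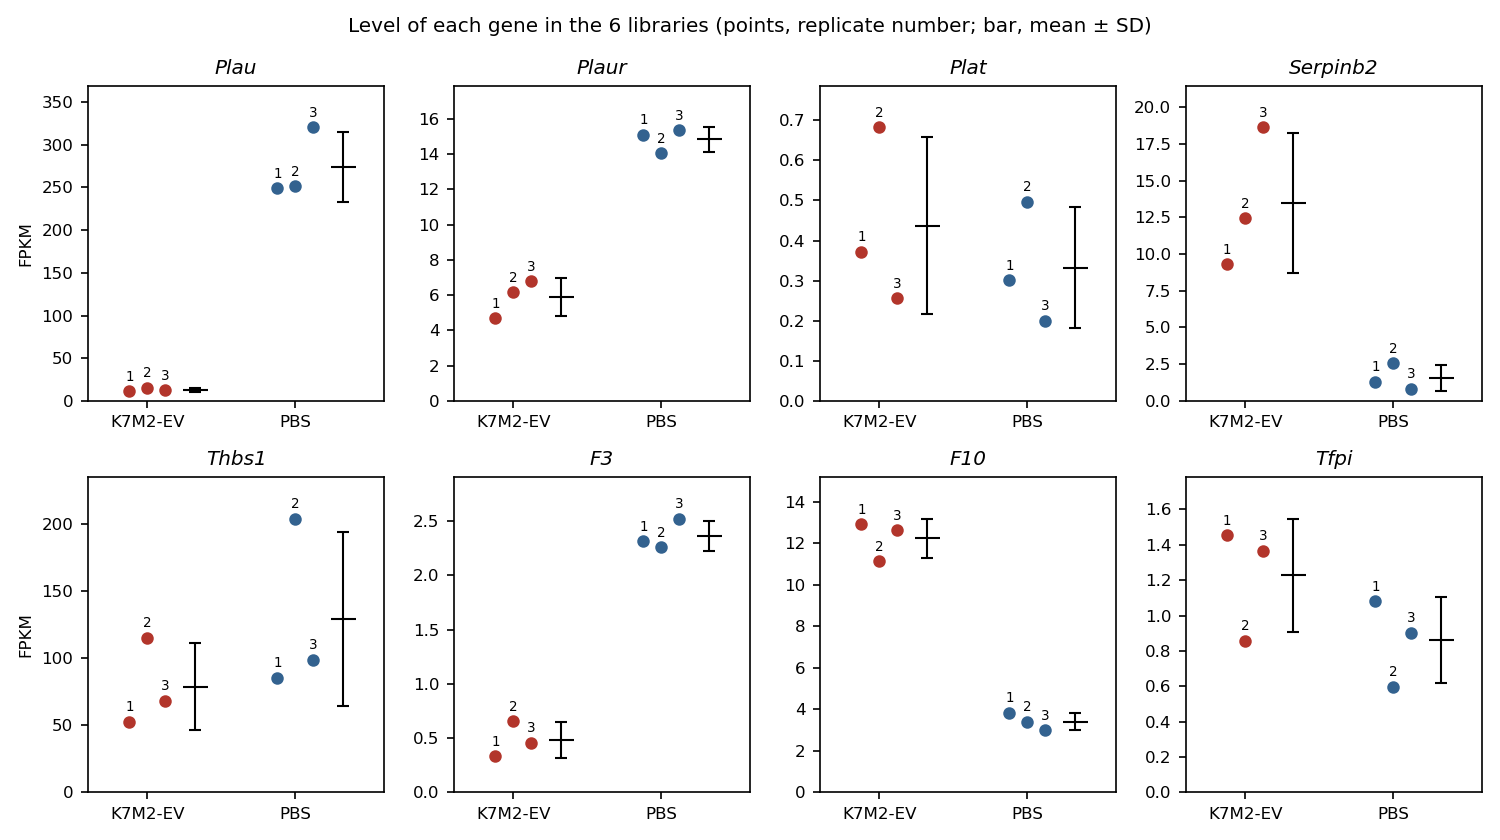
FPKM of each of the 8 genes (vertical axis, linear from 0) in K7M2-EV and PBS libraries, with points labelled by replicate number and bars giving the mean ± SD of 3 libraries. Plau stands at 11.2 to 15.2 FPKM in K7M2-EV libraries and 249 to 321 FPKM in PBS libraries, while the groups overlap in Plat, Thbs1 and Tfpi.

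Plau lies on GRCm38 chromosome 14 at 20836660 to 20843385, plus strand. It had 11.2, 15.2 and 12.2 FPKM in K7M2-EV replicates 1 to 3, against 249, 252 and 321 FPKM in PBS replicates 1 to 3. Every PBS library was above every K7M2-EV library by a wide gap, and no K7M2-EV library kept more than a small part of the PBS level. The mean of 12.9 ± 2.11 FPKM with vesicles was 21.3-fold lower than the 274 ± 40.7 FPKM with PBS (SD, n = 3 each). On the log2(FPKM + 1) scale the change was -4.31 ± 0.14 (SE, limma adjusted p = 4.8e-06), and only 3 of the 13009 genes had a more negative value. About 636 to 797 reads in each K7M2-EV library and 12771 to 19569 in each PBS library stood behind these levels, so counting error is small beside the difference.

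Plaur, on chromosome 7 at 24462484 to 24475968 on the plus strand, encodes the anchored receptor that holds urokinase at the membrane. Its levels were 4.71, 6.17 and 6.80 FPKM in K7M2-EV libraries and 15.1, 14.0 and 15.4 FPKM in PBS libraries. The groups did not overlap, and the PBS libraries lay close together. The receptor gene was 2.52-fold lower on the mean, with a log2 change of -1.21 ± 0.12 (SE, limma adjusted p = 0.000279). Ligand and receptor thus fell by unequal amounts. Within each library Plau exceeded Plaur 2.38-, 2.47- and 1.79-fold with vesicles and 16.5-, 17.9- and 20.9-fold with PBS.

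Plat, the other plasminogen activator gene (chromosome 8, 22757727 to 22782844, plus strand), was barely expressed. It was at 0.373, 0.683 and 0.257 FPKM in K7M2-EV libraries and 0.301, 0.496 and 0.200 FPKM in PBS libraries, or 38 to 94 and 32 to 66 approximate reads. The groups overlapped, and replicate 2 was the highest library of each. Tested without the filter on low values, its log2 change was 0.10, with a 95% interval of -0.23 to 0.44 (limma adjusted p = 0.621). By replicate number Plat was 1.24-, 1.38- and 1.28-fold higher with vesicles, and with no filter and the replicate block, an alternative chosen after seeing the data, the interval was -0.04 to 0.25 (adjusted p = 0.223). In each library Plau remained the more abundant activator transcript, 22.3- to 47.6-fold above Plat with vesicles and 507- to 1601-fold with PBS.

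Serpinb2, at 107511423 to 107535478 on chromosome 1 (plus strand), encodes a largely intracellular serpin that can also be secreted and inhibits urokinase. Levels were 9.31, 12.4 and 18.6 FPKM in K7M2-EV libraries, against 1.32, 2.57 and 0.827 FPKM in PBS libraries. No PBS library came near the lowest K7M2-EV library, although both groups spread widely about their means. The mean was 8.55-fold higher with vesicles, 13.5 ± 4.75 FPKM against 1.57 ± 0.900 FPKM with PBS (SD, n = 3 each). Its log2 change of 2.50 ± 0.31 (SE, limma adjusted p = 0.000811) was the 134th largest rise. Only about 68, 130 and 50 reads stood behind the PBS values of replicates 1 to 3, against 525 to 1052 in K7M2-EV libraries. An overlapping gene on the same strand, Serpinb10, reached at most 0.0166 FPKM.

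Set against each other within a library, inhibitor and activator RNA reached similar levels with vesicles. Serpinb2 was 0.832, 0.815 and 1.53 times Plau in K7M2-EV libraries and 0.00531, 0.0102 and 0.00258 times Plau in PBS libraries. Such a ratio does not depend on how libraries are scaled. Its log2 value, with 1 FPKM added to each gene, averaged 0.02 ± 0.48 with vesicles and -6.78 ± 0.66 with PBS (SD, n = 3 each), a difference of 6.80. The log2 ratio of Plau to Plaur differed by -3.10 and that of Plau to Plat by -4.41. An exact two-sided permutation test gave p = 0.1 for each of the 5 ratios compared, the smallest p that 3 against 3 libraries allow, and 0.1 after adjustment over the 5.

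**Figure D2:**
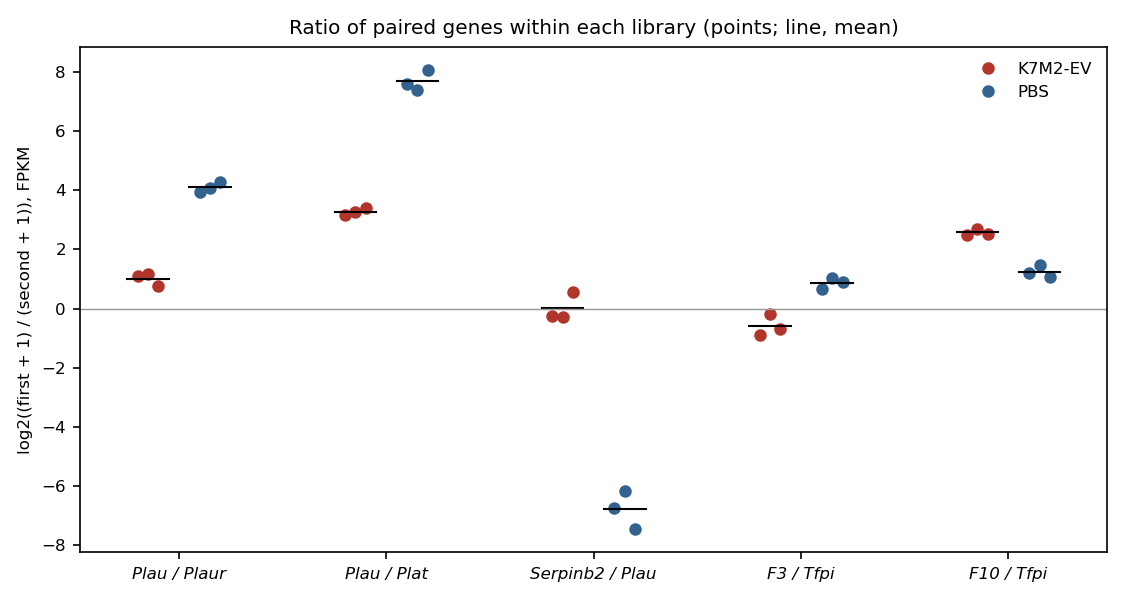
Log2 ratio of 5 pairs of genes within each library (vertical axis, 1 FPKM added to each gene), K7M2-EV points left of PBS points, with lines at the means of 3 libraries. The K7M2-EV and PBS points are separate for all 5 pairs, and Serpinb2 / Plau shows the widest gap, with means of 0.02 and -6.78.

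Tissue factor and factor X moved in opposite directions. F3, the membrane receptor that starts coagulation, is on chromosome 3 at 121723537 to 121735048 (plus strand). It was at 0.333, 0.657 and 0.457 FPKM in K7M2-EV libraries and 2.31, 2.26 and 2.52 FPKM in PBS libraries. All K7M2-EV libraries were below 1 FPKM and all PBS libraries above it, so the gene passed the filter only through the group where it was high. F3 was 4.90-fold lower on the mean. The log2(FPKM + 1) change of -1.19 ± 0.10 (SE, limma adjusted p = 0.000122) understates that, and adding 0.1 FPKM in place of 1 gave -2.12 (adjusted p = 0.000354). Behind the K7M2-EV values stood only about 20, 37 and 28 reads, against 122 to 164 in PBS libraries.

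F10 (chromosome 8, 13037308 to 13056676, plus strand) encodes the zymogen whose active form converts prothrombin to thrombin. Its RNA was at 12.9, 11.1 and 12.6 FPKM in K7M2-EV libraries and 3.84, 3.40 and 3.00 FPKM in PBS libraries. Both groups were tight and far apart. The mean was 3.58-fold higher with vesicles, and the log2 change was 1.59 ± 0.09 (SE, limma adjusted p = 3.07e-05).

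Tfpi, on the minus strand of chromosome 2 at 84432855 to 84476775, encodes the inhibitor of the tissue factor complex and of active factor X. Levels were 1.45, 0.858 and 1.37 FPKM in K7M2-EV libraries and 1.08, 0.598 and 0.903 FPKM in PBS libraries. The groups overlapped, because replicate 2 was the lowest of each. The log2 change was 0.26, with a 95% interval of -0.09 to 0.61, and it was not called (limma adjusted p = 0.181). Compared within each replicate number, Tfpi was 1.34-, 1.44- and 1.51-fold higher with vesicles, and with the replicate number as a block the same change was called (adjusted p = 0.0277). Quantile normalization also gave a call, at 0.48 (adjusted p = 0.0375).

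The balance of F3 to Tfpi RNA was 0.229, 0.765 and 0.334 in K7M2-EV libraries and 2.14, 3.78 and 2.79 in PBS libraries, without overlap. F10 exceeded Tfpi 8.89-, 12.98- and 9.25-fold with vesicles and 3.55-, 5.69- and 3.32-fold with PBS. The log2 ratios differed by -1.44 for F3 to Tfpi and by 1.33 for F10 to Tfpi, each at the smallest permutation p named above. Adding 1 FPKM shrinks the first, which was -2.58 with 0.1 FPKM added.

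Thbs1 remained an abundant transcript in every library. It lies on chromosome 2 at 118111876 to 118127133 on the plus strand. Levels were 52.8, 115 and 68.3 FPKM in K7M2-EV libraries and 85.4, 204 and 99.0 FPKM in PBS libraries. Replicate 2 was the highest of both groups, and the K7M2-EV library numbered 2 was above 2 PBS libraries. The log2 change of -0.68 had a 95% interval of -1.65 to 0.30 and was not called (limma adjusted p = 0.202). Without PBS replicate 2 it was -0.30 (adjusted p = 0.484), and without K7M2-EV replicate 2 it was -0.99 (adjusted p = 0.0833).

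Compared by replicate number, Thbs1 with vesicles was 0.619, 0.565 and 0.689 times its PBS level. The replicate block left the change at -0.68 with an SE of 0.07, and it was then called (adjusted p = 0.00181). With both libraries numbered 2 left out, an alternative chosen after seeing the data, the change was -0.61 (adjusted p = 0.0270). With the block all 7 tested genes were called, 3 higher and 4 lower, where 56% of all genes were called, 19.2% higher and 36.8% lower. Among the 4 lower is F3, which passed the filter only through PBS libraries.

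Some markers of other cells also differed between libraries. The 12 mesenchymal and osteosarcoma markers summed to 215, 580 and 209 FPKM in K7M2-EV replicates 1 to 3 and 126, 298 and 138 FPKM in PBS replicates 1 to 3. Replicate 2 was thus highest in both groups for these markers, as for Thbs1 and Plat, and lowest for Tfpi. Between groups the marker sum, mostly Col1a1, was higher with vesicles in each number, whereas Thbs1 was lower. Runx2 was the only marker of this list called in the main fit, and it was lower (0.721 FPKM with vesicles, 1.51 FPKM with PBS, limma adjusted p = 0.00488). It passed the filter only through PBS libraries. Col1a1 was not called (adjusted p = 0.134), but Col1a1, Col1a2, Col3a1 and Sparc were called higher with the replicate block. The 9 platelet and megakaryocyte markers summed to 129 to 158 FPKM with vesicles and 31.6 to 37.8 FPKM with PBS, nearly all of it Pf4. Ppbp, another platelet gene, was at 3.99 to 6.37 FPKM with vesicles and 0.336 to 0.649 FPKM with PBS. It was called higher, but passed the filter only through K7M2-EV libraries, where it was high. Gp6, below the filter, averaged 0.240 FPKM with vesicles and 0.0042 FPKM with PBS. Treml1 and Gp1ba, also below the filter, went the other way without overlap. Treml1 was at 0.286 to 0.349 FPKM with vesicles and 0.689 to 1.17 FPKM with PBS. Gp1ba was at or below 0.0160 FPKM with vesicles and at 0.0175 to 0.0375 FPKM with PBS. For Gp1bb, Gp9 and Tubb1 the groups overlapped. Platelet-defining Itga2b stayed at or below 0.196 FPKM in every library. Neutrophil markers, 8 with values, summed to 39.5 to 44.0 FPKM with vesicles and 3.17 to 5.42 FPKM with PBS, mostly S100a8. S100a9 averaged 0.517 FPKM with vesicles and 0.783 FPKM with PBS and was not called (limma adjusted p = 0.662). Cxcr2, below the filter, was listed at 0 in every K7M2-EV library and averaged 0.116 FPKM with PBS. Libraries of both groups overlapped for Ltf, Retnlg and Mpo. Camp averaged 2.22 FPKM with vesicles and 0.200 FPKM with PBS and was called higher (limma adjusted p = 0.00273). Like Ppbp, it passed the filter only through K7M2-EV libraries. Neutrophil-defining Ly6g was listed at 0 in all but 1 PBS library. Endothelial markers summed to at most 1.33 FPKM in any library, and lymphocyte and mast cell markers to at most 0.234 FPKM. The part of any of these cells in the values of the 8 genes was not tested.

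**Figure D3:**
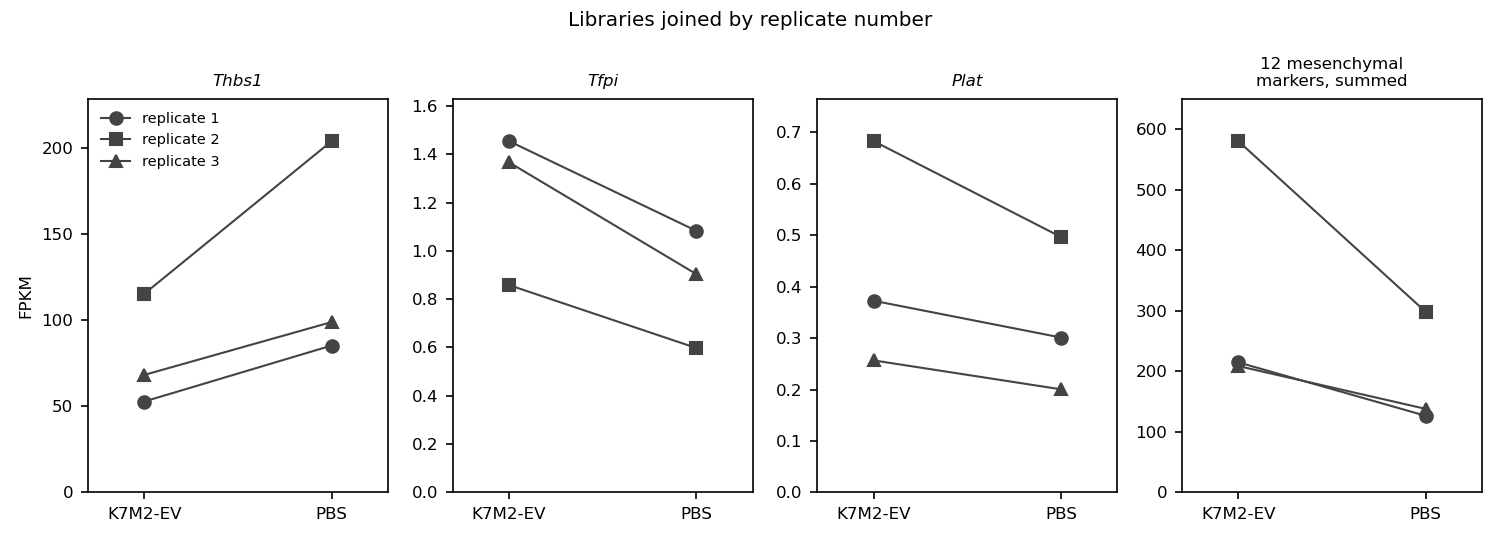
FPKM of Thbs1, Tfpi, Plat and the sum of 12 mesenchymal markers (vertical axes, linear from 0), with K7M2-EV and PBS libraries of the same replicate number joined by a line. All 3 lines of Thbs1 are lower at K7M2-EV than at PBS and those of Tfpi, Plat and the marker sum are higher, while replicate 2 stands apart in every panel.

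The order of the 8 transcripts changed between groups. With vesicles Thbs1 came first at a mean of 78.8 FPKM, followed by Serpinb2, Plau and F10 at 13.5, 12.9 and 12.2 FPKM, whose libraries overlapped from one to the next. Plaur at 5.89 FPKM and Tfpi at 1.23 FPKM followed without overlap, and F3 and Plat, at 0.482 and 0.437 FPKM, overlapped at the bottom. With PBS the order ran Plau, Thbs1, Plaur and F10, each clear of the next, and F10 was also clear of F3. F3, Serpinb2 and Tfpi at 2.36, 1.57 and 0.861 FPKM then overlapped in turn, and Plat was last.

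Around these genes, the wider plasminogen system list gave 21 genes with values, of which 14 were tested, 3 called higher, 6 lower and 5 not called. The called share was 64.3% against 54% of all genes, and the median log2 fold change was -0.20 against -0.12 for all genes. Plasminogen itself, Plg, was at 0.0302 FPKM in K7M2-EV replicate 3 and listed at 0 in the other libraries. Transcripts of proteins that bind plasminogen at the cell surface moved both ways, with Anxa2 and S100a10 lower and Eno1 higher. The plasminogen receptor gene Plgrkt was not called (log2 change 0.07, limma adjusted p = 0.608). Anxa2, which pairs with S100a10 to bind plasminogen, had 99.1, 110 and 98.8 FPKM with vesicles and 162, 169 and 161 FPKM with PBS (log2 change -0.67, limma adjusted p = 0.000242). S100a10 was at 23.9, 34.5 and 28.8 FPKM with vesicles, below its 56.0, 62.8 and 65.0 FPKM with PBS (-1.06). Lrp1, the endocytic receptor that clears urokinase-inhibitor complexes, was at 87.4 FPKM with vesicles and 200.2 FPKM with PBS, a log2 change of -1.18.

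Other serpin genes of the list moved both ways. Serpinb6a fell by 1.01 on the log2 scale. Serpinb8 was higher by 0.74 (limma adjusted p = 0.0215), a call lost without K7M2-EV replicate 2 (0.73, adjusted p = 0.0530) or 3 (0.69, adjusted p = 0.0697) or both libraries numbered 2 (0.80, adjusted p = 0.0705). Serpine2, the gene of protease nexin 1, had a change of -0.35 and was not called (adjusted p = 0.187), but was with the replicate block (adjusted p = 0.0179) and without both libraries numbered 2 (-0.30, adjusted p = 0.0474).

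Among integrin chains that work with the urokinase receptor, the abundant Itgb2 and Itgb1 were not called. Itgb2 was at 245 FPKM with vesicles and 228 FPKM with PBS (limma adjusted p = 0.305), and Itgb1 at 135 and 125 FPKM (adjusted p = 0.140). Itgav and Itgb3 fell by 0.92 and 1.01 on the log2 scale. Itgb3 reached 1 FPKM in PBS libraries only. Its change was -1.72 with 0.1 FPKM added and -1.86 with voom, and its call was lost without both libraries numbered 1 (-0.94, adjusted p = 0.0759). Itgam was higher by 0.65 (limma adjusted p = 0.0360), lost without K7M2-EV replicate 1 (0.66), K7M2-EV replicate 3 (0.54) or PBS replicate 3 (0.74), at adjusted p of 0.0560 to 0.111. It was also lost with no filter (adjusted p = 0.0706), with quantile normalization (0.61, adjusted p = 0.0562), and without both libraries numbered 1 (0.80, adjusted p = 0.0796) or 3 (0.62, adjusted p = 0.145). Without K7M2-EV replicate 3 the list had 1 gene called higher in place of 3. Eno1, a glycolytic enzyme that also binds plasminogen, was higher by 0.56 (adjusted p = 0.00484), a call lost without both libraries numbered 3 (0.53, adjusted p = 0.0690). The tables list Eno1b apart from Eno1, and how reads were divided between them was not tested.

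The coagulation list had 25 genes with values, of which 15 were tested, 5 called higher, 6 lower and 4 not called (73.3% called against 54% of all genes, median log2 fold change -0.20 against -0.12). Anticoagulant genes of the protein C pathway split. Procr, which encodes the protein C receptor, had 9.46, 9.31 and 11.4 FPKM with vesicles and 3.21, 2.88 and 3.41 FPKM with PBS, a log2 change of 1.41 ± 0.09 (SE). Thrombomodulin, encoded by Thbd, was at 2.91, 4.43 and 3.44 FPKM with vesicles and 5.77, 7.13 and 6.11 FPKM with PBS (-0.68, limma adjusted p = 0.00545, lost at 0.0642 without both libraries numbered 3). Pros1, the gene of the cofactor protein S, averaged 7.13 FPKM with vesicles and 14.5 FPKM with PBS (-0.94).

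F7, whose product pairs with tissue factor, had 15.3, 14.9 and 15.1 FPKM with vesicles and 18.8, 18.3 and 15.8 FPKM with PBS. The change of -0.21 (limma adjusted p = 0.0456) lost its call without K7M2-EV replicate 1, 2 or 3 (-0.22, -0.20 and -0.21) or PBS replicate 1 or 2 (-0.16 and -0.18), at adjusted p of 0.0950 to 0.117. The call was also lost with no filter (adjusted p = 0.0789), quantile normalization (-0.22, adjusted p = 0.0526), voom (-0.22, adjusted p = 0.0528) and without both libraries numbered 1 or 2 (-0.17 each, adjusted p = 0.193 and 0.191). After median-of-ratios scaling it was -0.03 (adjusted p = 0.786). Vwf, the von Willebrand factor gene, had 0.882, 0.962 and 1.10 FPKM with vesicles and 6.48, 5.22 and 6.10 FPKM with PBS, the list's steepest fall at -1.80. F5 stayed at or below 0.0694 FPKM and F13a1 at or below 0.163 FPKM in every library.

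Clotting factors assemble on membranes that expose phosphatidylserine. The scramblase gene Xkr8, whose product exposes this lipid, rose by 1.20 on the log2 scale, with 3.99, 3.41 and 4.24 FPKM with vesicles and 0.979, 1.31 and 1.08 FPKM with PBS. Ano6, another scramblase gene of the list, was not called, at 9.42 FPKM with vesicles and 9.11 FPKM with PBS (log2 change 0.04, limma adjusted p = 0.767). Anxa5, whose product covers phosphatidylserine, fell by 0.51 on that scale, to 172 FPKM with vesicles against 245 FPKM with PBS. Lman1 and Mcfd2, the cargo receptor for factors V and VIII, rose by 0.38 and 0.42, and Vkorc1l1, a vitamin K reductase gene, fell by 0.83. Of the thrombin receptors, F2rl2 was higher by 0.45 (limma adjusted p = 0.0185), lost without K7M2-EV replicate 2 (0.42) or 3 (0.42) or PBS replicate 1 (0.44) at adjusted p of 0.0525 to 0.0629, and without both libraries numbered 1 (0.50, adjusted p = 0.0727) or 2 (0.32, adjusted p = 0.0823). F2r had a change of -0.68 that was not called (adjusted p = 0.0690). It was called with the replicate block (adjusted p = 0.0102) and without both libraries numbered 2 (-0.52, adjusted p = 0.00803).

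Receptors and partners of thrombospondin 1, with relatives and substrates of these proteases, made a list of 12 genes with values, 9 of them tested. Here 2 were called higher, 5 lower and 2 not called (77.8% called against 54% of all genes, median log2 fold change -0.58 against -0.12). Both of its classical cell-surface receptors changed, in opposite directions. Cd36 had 135, 107 and 126 FPKM with vesicles and 332, 237 and 272 FPKM with PBS (-1.18), while Cd47 had 66.6, 65.9 and 61.7 FPKM with vesicles and 43.6, 38.4 and 39.0 FPKM with PBS (0.67). Tgfbr1 and Tgfbr2, receptor chains for the growth factor that thrombospondin 1 can activate, fell by 1.59 and 0.58 on the log2 scale. Adamts1, a matrix protease gene, fell by 1.39 but was not called once both libraries numbered 3 were left out (-1.34, adjusted p = 0.0646).

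Hepatocyte growth factor is made as a precursor that serine proteases of this kind cleave. Its gene Hgf was at 1.01, 1.07 and 0.769 FPKM with vesicles and 3.83, 2.70 and 2.83 FPKM with PBS (log2 change -1.07, limma adjusted p = 0.000564). The receptor gene Met was at 9.002, 8.92 and 9.95 FPKM with vesicles and 2.51, 2.68 and 2.27 FPKM with PBS (1.56). Thbs2, the nearest relative of Thbs1 on the list and named after its values were seen, had 9.82, 25.8 and 9.76 FPKM with vesicles and 4.53, 11.7 and 4.42 FPKM with PBS. Replicate 2 was again highest in both groups. Thbs2 had a change of 1.01 that was not called (adjusted p = 0.117), and its sign was opposite to that of Thbs1. It was called with the replicate block (adjusted p = 0.000239), without PBS replicate 2 (1.42, adjusted p = 0.0384) and without both libraries numbered 2 (0.98, adjusted p = 0.000428).

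**Figure D4:**
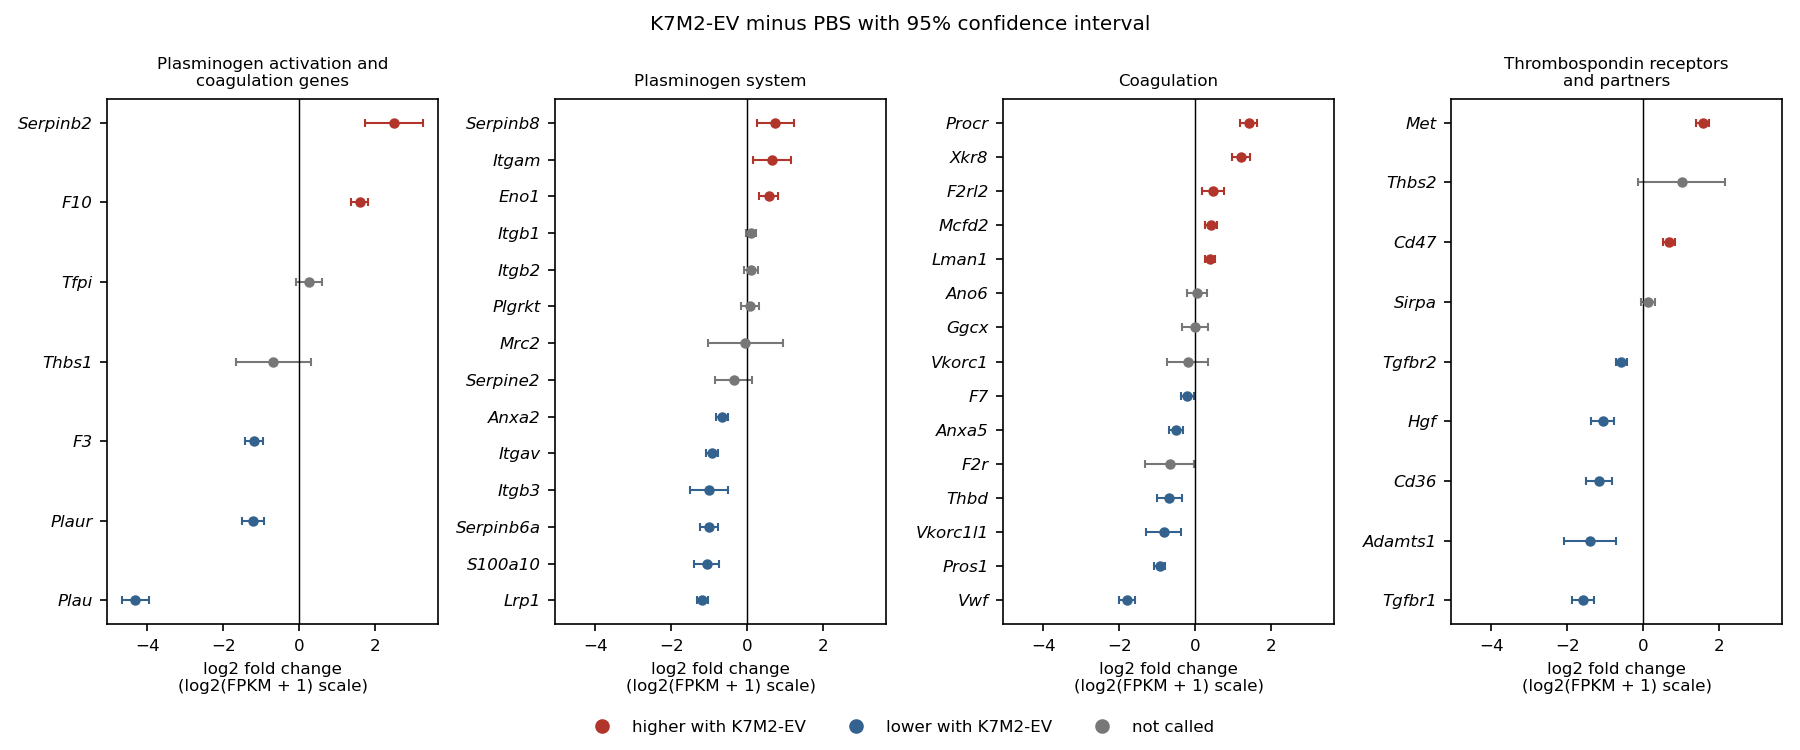
Log2 fold change, K7M2-EV minus PBS, on the log2(FPKM + 1) scale (horizontal axis) with 95% confidence intervals for the 7 tested genes and the tested genes of the 3 lists. Plau at -4.31 is the lowest point of any panel and Serpinb2 at 2.50 the highest.

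The genes whose profiles over the 6 libraries lay nearest, by the root mean square difference of mean-centred log2(FPKM + 1) values, were found for each of the 7. For Plau these were Atp6v0d2, a proton pump subunit gene, at 0.186, Cxcr4 at 0.348 and Mamdc2 at 0.349. Thbs1 lay nearest to Fhl2 at 0.0604, the AP-1 subunit gene Fosl1 at 0.0935 and the matricellular protein gene Cyr61 at 0.0979, each also highest on average in PBS libraries with a wide spread. Serpinb2 lay nearest to Clmp at 0.277, Ier3 at 0.298 and Lancl3 at 0.298. Nearest to the others stood Tmem37 for Plaur at 0.0530, Abcb1b for F3 at 0.0244, Fam43a for F10 at 0.0430 and Blnk for Tfpi at 0.0476.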

How the data were processed

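RNA of 6 macrophage libraries, 3 K7M2-EV and 3 PBS by their titles, was analysed from the FPKM tables the authors deposited, 1 per library with 26883 rows. Libraries were made from total RNA with a NEB Ultra kit, per the labels' protocols. Tools listed in the submitters' processing notes are HISAT2 2.1.0, StringTie 1.3.4b, CASAVA 1.8 and edgeR, with GRCm38 as the build and no role for any of them. No label states whether strand was kept, so antisense and overlapping genes cannot be told apart. The tables share 1 empty row, which was dropped together with 47 repeats of a symbol, keeping the repeat with the highest mean. Exon lengths and positions came from GENCODE M21 (GRCm38), matched by symbol for 99.6% of genes. FPKM times exon length fell on steps of 1 read, with 72.3% to 73.4% of values up to 20 reads whole within 0.1, which gave the implied depths. Read numbers are thus approximate, and they cover counting error only.

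A gene was tested if 3 or more libraries reached 1 FPKM (13009 genes), by limma 3.58.1 (trend and robust settings, R 4.3.3, statmod 1.5.0) on log2(FPKM + 1), K7M2-EV minus PBS, with Benjamini-Hochberg adjustment over all of them and a threshold of 0.05. This scale understates changes of low genes. Ratios within libraries were tested by exact permutation with scipy 1.17.1. The fit was tested on simulated data with far fewer changed genes than were called here and no structure shared by replicate number. That test therefore does not give the error rates of the fit in these data. Genes and lists were chosen with earlier results of these data known. The text names the 8 genes whatever their result, called genes of the lists, and a few fixed pathway genes. Ano6, Itgb1, Itgb2 and Plgrkt, none of them called, were added with their values known. Deviations from the group means went together in same-numbered libraries, with correlations of 0.317, 0.294 and 0.209 for replicates 1 to 3, and at most 0.0232 between other numbers. The numbers were therefore taken to pair the libraries, although no label says that they do. This pairing was read from the same libraries that the block then uses. Because deviations were centred within each group, the low correlations between other numbers are not separate evidence for it. The unblocked fit stayed the main one. Alternatives were another pseudocount, no filter, other scalings, voom, a replicate block and left-out libraries. A gene of the plasminogen list is not reported here.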

Additional observations from a re-analysis of the deposited data

How the results depend on the processing

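Plau, Plaur, Serpinb2, F3 and F10 kept their direction and call in all 15 alternatives. Their log2 fold changes ran from -4.48 to -4.12, -1.35 to -1.04, 2.03 to 3.22, -2.34 to -0.97 and 1.49 to 1.85. With 1 library left out they ran from -4.43 to -4.19, -1.31 to -1.08, 2.25 to 2.76, -1.27 to -1.11 and 1.52 to 1.66, and Thbs1 and Tfpi from -0.99 to -0.30 and 0.15 to 0.38, neither called. With the replicate block Thbs1 (-0.68) and Tfpi (0.26) were called, as were Thbs1 without both libraries numbered 2 (-0.61) and Tfpi after quantile normalization (0.48). The block changed no other call among these genes, and in the 3 lists it changed those of Serpine2, F2r and Thbs2. It was not examined for the genes of nearest profile.

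Over all genes, median-of-ratios scaling gave 3789 higher and 3066 lower, and leaving out both libraries numbered 3, chosen after seeing the data, gave 1531 and 2847. Leaving out 1 library gave 1993 to 2416 higher and 3896 to 4281 lower. The plasminogen list had 5 higher genes with median-of-ratios scaling, 1 without both libraries numbered 3, and 1 to 3 with 1 library left out. Ratios within libraries kept their sign throughout. The causes were not tested. Depth limits F3, Plat and Tfpi most, with under 200 approximate reads in each library. It also limits Serpinb2 in PBS libraries, with 50 to 130 approximate reads, and so its fold change and its ratio to Plau.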

Other observations

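Some genes below the filter on low values were separate between groups, and they were chosen after their values were seen. Hpn, which encodes hepsin, a membrane protease that can cleave factor VII and the precursor of hepatocyte growth factor, was at 1.08, 0.940 and 1.22 FPKM in K7M2-EV libraries and 0.235, 0.184 and 0.208 FPKM in PBS libraries. St14, the gene of matriptase, a membrane protease that can activate urokinase, was at 0.151, 0.112 and 0.146 FPKM in K7M2-EV libraries and 0.528, 0.432 and 0.508 FPKM in PBS libraries. Neither was tested in the main fit, and both stayed low.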
